A study of Mus musculus with 12 samples.

Results

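Tight junction genes were followed through the conversion of mouse fibroblasts into pluripotent cells. The set has 9 named genes: the claudins Cldn3, Cldn4, Cldn6 and Cldn7, the membrane proteins Ocln and Marveld3, the cytoplasmic scaffolds Tjp3 and Cgn, and the polarity protein Crb3. They were taken by symbol from the 37583 genes of the count tables, and were chosen with earlier results of these data known. Counts of members called beside the share of all genes are therefore descriptions. The count tables list them as ENSMUSG00000070473 (Cldn3), ENSMUSG00000047501 (Cldn4), ENSMUSG00000023906 (Cldn6), ENSMUSG00000018569 (Cldn7), ENSMUSG00000021638 (Ocln), ENSMUSG00000001672 (Marveld3), ENSMUSG00000034917 (Tjp3), ENSMUSG00000068876 (Cgn) and ENSMUSG00000044279 (Crb3). All 9 were found and all 9 passed the filter on low counts, which left 16240 genes for testing.

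RNA was measured by poly-A sequencing in 12 libraries, 2 in each of 6 groups, all from mouse cells of the strain 129SV/Jae/C57BL6J. MEF, mouse embryonic fibroblasts in MEF media, were the starting cells, and iPSC, induced pluripotent stem cells in ES media, were the end point. The other 4 groups were reprogramming intermediates from cultures in ES media with dox and AA, sorted by flow cytometry after trypsin on day 3 or day 6. Every sorted group carried SSEA1, a surface carbohydrate of early embryonic and pluripotent cells. On day 3, d3_Ineff cells were CD73- and Sca1+, and d3_Eff cells were CD73+ and Sca1-. On day 6, d6_Ineff cells were EpCAM- and Sca1+, and d6_Eff cells were EpCAM+ and Sca1-. EpCAM is itself an epithelial adhesion protein, so the day 6 groups were separated on an epithelial surface marker before any transcript was counted. The titles of the MEF and iPSC samples carry the mark 3/4, which the labels do not explain. Nothing in the labels says that replicates came from separate cultures or animals, so p-values measure only the spread between these samples.

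A tight junction is a belt of contacts near the apical edge of epithelial cells that seals the space between neighbours and separates the apical from the lateral membrane. Claudins are small membrane proteins that form its strands and set which ions pass, and occludin and other proteins with a MARVEL domain sit in the same strands. Zonula occludens scaffolds and cingulin tie the strands to actin, and Crumbs proteins mark the apical membrane. Fibroblasts have no such belt, and pluripotent cells in culture are epithelial, so reprogramming includes a change from mesenchymal to epithelial character. Repressors of the Snail and Zeb families bind E-boxes with the letters CACCTG in epithelial genes, and grainyhead-like factors bind AACCNGTT.

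Start-site windows of 8 of the 9 members were found in the RefSeq promoter table (build GRCm38.p6, 250 bases before to 50 after each annotated start). CACCTG, read on either strand, stood in the windows of 7 of these 8 genes, in 10 of their 12 windows and at 15 distinct places. Across all windows of the same length, 20.2% of 32841 held it, or 22.6% of 27018 genes in at least 1 window. AACCNGTT was found on either strand for 1 of the 8 genes, Cgn, against 2.35% of all genes, and Cgn was the 1 gene without CACCTG, so no place in these windows matched both. The sequences are shown because the Snail, Zeb and grainyhead-like factors among the regulators described further on recognise these letters. Each is printed along the gene's own strand, 5′ to 3′, with the motif in capitals and 10 bases on either side. Cldn3 held 1 place with CACCTG, Cldn4, Cldn6, Cldn7, Ocln and Tjp3 held 2 each and Crb3 held 4. For each gene the place shown is the one nearest to a start among those with 10 bases on either side inside the window, which left out a Cldn6 place at 40 in the numbering used here.
Cldn3: aagccacaggCAGGTGcaggggcagt
Cldn4: ttaactgcagCACCTGtggccgccct
Cldn6: gaaacgcacgCAGGTGgctatcgccg
Cldn7: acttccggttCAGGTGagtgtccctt
Ocln: atcggagtttCAGGTGaatgggtcac
Tjp3: caaaccctccCACCTGcaggccggcc
Crb3: gctctttgccCAGGTGggtgactaaa
Cgn: cctggggagtAACAGGTTggtgggcggg

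Positions count from the first transcribed base, which is 0, to the 5′ end of the motif. For Cldn3 the place shown lay at position 31 (chr5:134986235-134986260, plus strand), and for Cldn4 at -14 (chr5:134946933-134946958, minus strand). For Cldn6 it lay at -93 (chr17:23679262-23679287, plus strand) and for Cldn7 at -57 (chr11:69965354-69965379, plus strand). For Ocln it lay at 7 (chr13:100552696-100552721, minus strand) and for Tjp3 at -17 (chr10:81291269-81291294, minus strand). For Crb3 it lay at -5 (chr17:57062216-57062241, plus strand). The Cgn motif lay at -29 (chr3:94786494-94786521, minus strand). A match of letters is a description of the window and does not show that a factor binds there.

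Levels are given as CPM, the reads of a gene per 1e6 gene counts after TMM scaling, with the value of replicate 1 before that of replicate 2, and means carry the SD (n = 2). The libraries held 9284060 to 22763548 gene counts. MEF replicate 2 was the shallowest, and 47.2% of its counted reads fell outside genes, against 24.1% in d6_Eff replicate 2 and 5.10% to 11.7% in the other 10. The members together took 28 and 10 counts in MEF and 10750 to 13925 in d6_Eff, so values in MEF rest on few reads. Summed over the members, the level was 1.45 and 1.40 CPM in MEF, 6.12 and 6.06 in d3_Ineff, 15.4 and 14.8 in d3_Eff, 40.0 and 38.6 in d6_Ineff, 620 and 631 in d6_Eff, with 389 and 435 in iPSC. The sum was thus lowest in MEF and highest in d6_Eff, and no group overlapped another. In such bulk samples, fewer cells that express a gene and less RNA per cell cannot be told apart.

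Cldn4, a barrier claudin of simple epithelia, had the highest level of the set per length of transcript, 121 ± 0.841 CPM per kb in d6_Eff and 102 ± 13.5 in iPSC. Its level was 0.671 and 0 CPM in MEF, 2.32 and 2.17 in d3_Ineff, 7.41 and 7.59 in d3_Eff, 19.1 and 21.7 in d6_Ineff, 221 and 219 in d6_Eff, with 168 and 203 in iPSC. Each of the 6 groups stood clear of its neighbours in this order, with d6_Eff just above iPSC. Cldn3, a claudin of similar barrier function that lies beside Cldn4 on chromosome 5, measured 0.258 and 0 CPM in MEF, 1.40 and 2.13 in d3_Ineff, 3.08 and 1.92 in d3_Eff, 9.85 and 7.06 in d6_Ineff, 37.6 and 36.6 in d6_Eff, with 16.1 and 13.7 in iPSC. Its groups had the same order as those of Cldn4, with overlap between the day 3 groups.

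Cldn7, a claudin of epithelial lateral membranes, was under 1 CPM in MEF and in all intermediates but d6_Eff. It measured 0.103 and 0 CPM in MEF, 0 and 0.136 in d3_Ineff, 0.434 and 0.832 in d3_Eff, 0.985 and 0.479 in d6_Ineff, 168 and 175 in d6_Eff, with 49.4 and 53.7 in iPSC. The libraries of d3_Eff and d6_Ineff overlapped, those of d3_Ineff and MEF overlapped, and d6_Eff lay far above all others. Cldn6, a claudin of embryonic epithelia and pluripotent cells, measured 0.0516 and 0 CPM in MEF, 0.437 and 0.136 in d3_Ineff, 0.0867 and 0 in d3_Eff, 1.27 and 2.63 in d6_Ineff, 123 and 120 in d6_Eff, with 69.8 and 77.5 in iPSC. Its d3_Eff libraries held 2 counts together and overlapped MEF, and both lay below d3_Ineff.

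Ocln encodes occludin, a 4-pass membrane protein of the strands. Its level was 0.103 and 1.12 CPM in MEF, 0 and 0.407 in d3_Ineff, 0.520 and 0.988 in d3_Eff, 0 and 1.24 in d6_Ineff, 23.8 and 27.1 in d6_Eff, with 8.85 and 5.60 in iPSC. MEF and the 3 intermediates other than d6_Eff overlapped, and the replicates of MEF and of d6_Ineff were far apart. Marveld3, a related MARVEL protein and the member with the lowest level per length in d6_Eff and iPSC (1.39 and 0.679 CPM per kb), measured 0 and 0 CPM in MEF, 0.656 and 0.226 in d3_Ineff, 0.304 and 0 in d3_Eff, 0.579 and 1.24 in d6_Ineff, 4.81 and 4.35 in d6_Eff, with 1.89 and 2.57 in iPSC. Only d6_Eff and iPSC stood clear of the groups next in order.

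Tjp3 encodes ZO-3, a zonula occludens scaffold of epithelial cells. It measured 0 and 0 CPM in MEF, 0.743 and 0.407 in d3_Ineff, 2.95 and 3.48 in d3_Eff, 2.90 and 0.917 in d6_Ineff, 13.9 and 17.5 in d6_Eff, with 33.3 and 37.0 in iPSC. The order differed from that of the claudins, with iPSC above d6_Eff and d3_Eff above d6_Ineff, and no neighbouring groups overlapped. Cgn encodes cingulin, which links the junction to actomyosin, and measured 0.258 and 0.279 CPM in MEF, 0.350 and 0.317 in d3_Ineff, 0.347 and 0 in d3_Eff, 4.69 and 2.43 in d6_Ineff, 8.37 and 9.57 in d6_Eff, with 16.3 and 18.3 in iPSC. Both day 3 groups were near MEF, and d6_Ineff, d6_Eff and iPSC lay above them in that order without overlap.

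Crb3 encodes a Crumbs protein of the apical membrane that helps to place the junction. It measured 0 and 0 CPM in MEF, 0.219 and 0.136 in d3_Ineff, 0.260 and 0 in d3_Eff, 0.637 and 0.917 in d6_Ineff, 20.0 and 22.5 in d6_Eff, with 25.6 and 23.3 in iPSC. The 4 groups other than d6_Eff and iPSC all lay under 1 CPM.

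**Figure D1:**
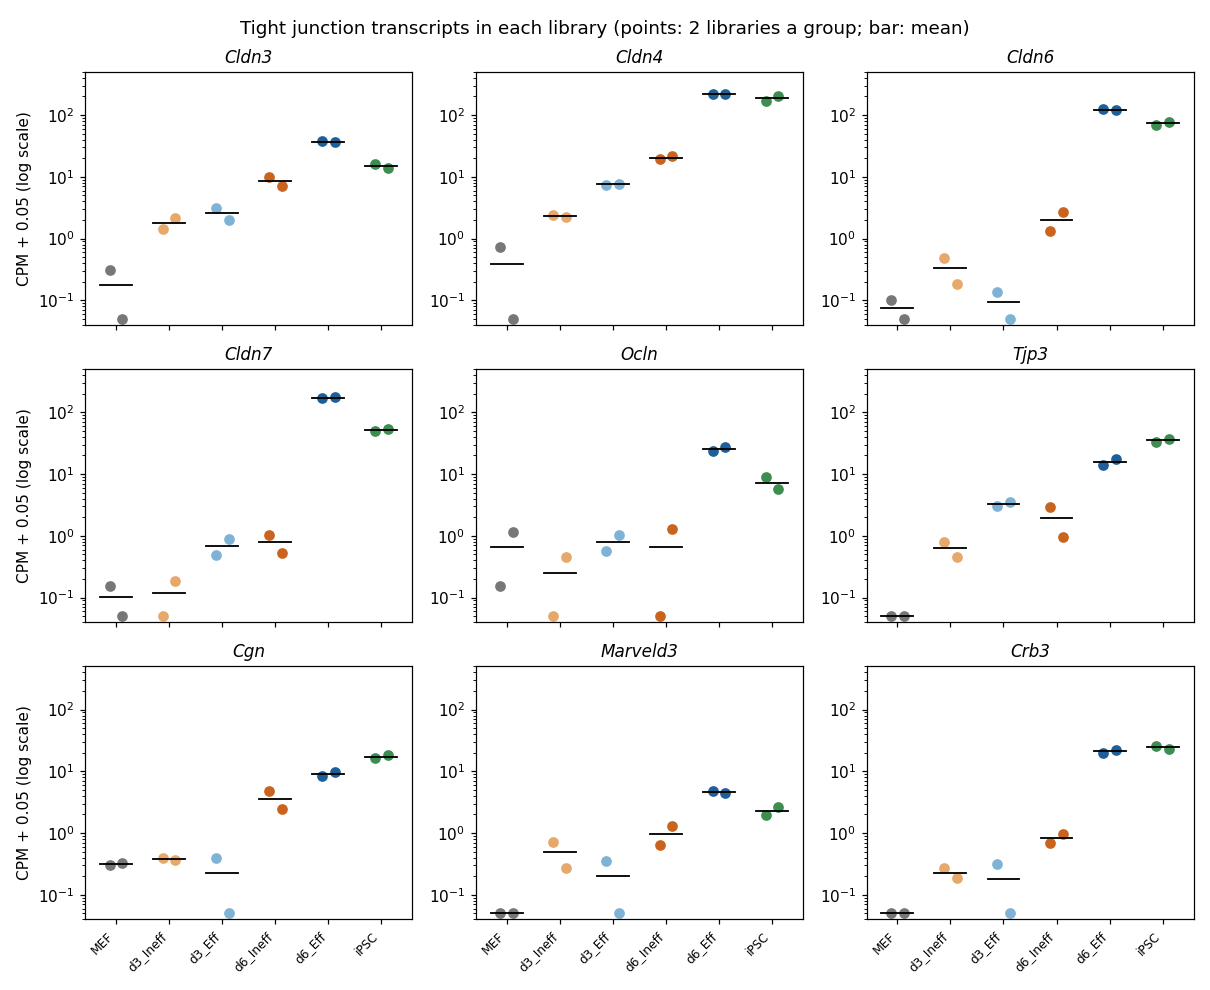
Level of each member in each library, in CPM with 0.05 added on a log axis; the 2 points of a group are its libraries and the bar is their mean. Cldn7 sits below 1 CPM in 8 libraries and at 168 and 175 CPM in d6_Eff, while Cldn4 climbs group by group from MEF to d6_Eff.

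Between the end points, iPSC and MEF, all 9 members were higher in iPSC at an adjusted p under 0.05 (edgeR quasi-likelihood test, Benjamini-Hochberg over all genes). Across all genes tested, 26% were called higher and 26.7% lower. The median log2 fold change of the members was 8.62, or 7.76 with genes that had no MEF count set to their bound, against 0.043 for all genes. Cldn4 went from 0.336 ± 0.475 to 185 ± 24.6 CPM, a log2 fold change of 8.62 ± 0.46 (SE, adjusted p = 1.22e-07). Cldn3 was 6.31 ± 0.58 higher (adjusted p = 5.39e-06) and Cgn 5.99 ± 0.79 higher (adjusted p = 7.99e-05) on the log2 scale. All MEF counts of the 4 claudins were in replicate 1. Without MEF replicate 2 the change of Cldn4 was 8.04. Without MEF replicate 1 no claudin count was left in MEF, so the fitted changes, 14.82 for Cldn4, 11.19 for Cldn3, 13.49 for Cldn6 and 12.97 for Cldn7, depend on the prior count, and all 4 stayed called. Tjp3, Crb3 and Marveld3 had no count in MEF, so their folds are lower bounds against 3 counts over the group, or 0.113 CPM: at least 311-fold higher for Tjp3, 216-fold for Crb3 and 19.7-fold for Marveld3. Cldn6 had 1 MEF count and Cldn7 had 2. Their ratios of iPSC to MEF were 1933 (95% counting interval 347 to 76385) and 678 (187 to 5603). Ocln had the smallest difference, 3.97 ± 1.26 on the log2 scale (adjusted p = 0.0208). It was not called without MEF replicate 1 (2.71, adjusted p = 0.101), without iPSC replicate 1 (adjusted p = 0.0723) and in DESeq2 (adjusted p = 0.0881).

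On day 3 a few members had left the MEF level. In d3_Ineff, 3 of 9 were higher than in MEF (Cldn3, Cldn4 and Tjp3), against 15% of all genes higher and 15% lower. In d3_Eff, 4 of 9 were higher (Cldn3, Cldn4, Cldn7 and Tjp3), against 18% of all genes higher and 18.6% lower. No member was called lower in either by edgeR or DESeq2, and none was lower at an unadjusted p under 0.05. Cldn4 was higher by 2.26 ± 0.48 on the log2 scale in d3_Ineff (adjusted p = 0.00450) and by 4.00 ± 0.45 in d3_Eff (adjusted p = 5.06e-05). Cldn3 was higher by 3.24 ± 0.63 (adjusted p = 0.00259) and by 3.75 ± 0.61 (adjusted p = 6.75e-04), in the same order. Tjp3 was at least 5.09-fold higher in d3_Ineff and at least 28.4-fold higher in d3_Eff. Cldn7 in d3_Eff was 8.16 times its MEF level (95% counting interval 2.04 to 70.9, 26 against 2 counts). Both contrasts share the MEF libraries. Without MEF replicate 2 the Cldn4 changes were 1.66 in d3_Ineff and 3.36 in d3_Eff, and that of Cldn3 in d3_Eff was 3.15. Without MEF replicate 1 the fitted changes of Cldn3, Cldn4 and Cldn7 again had no MEF count behind them. The d3_Ineff call of Tjp3 did not hold without MEF replicate 1 (adjusted p = 0.0809) nor the d3_Eff call of Cldn7 without d3_Eff replicate 2 (adjusted p = 0.124). Crb3 and Marveld3 were called in d3_Ineff when d3_Eff replicate 1 (adjusted p = 0.0322 and 0.0277) or 2 (0.0301 and 0.0265) was left out of the fit. In d3_Eff, Crb3 was called without replicate 2 (adjusted p = 0.0225), and Cgn was called lower without replicate 1 (adjusted p = 0.0351), where the remaining library had no count. Without the filter on low counts 6 members were called in d3_Ineff, with Cldn6, Marveld3 and Crb3 added, which had 13, 20 and 8 counts there, and DESeq2 called 4, with Marveld3 added (adjusted p = 0.0226).

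The sorted groups of day 3 were then set against each other. No member was called between d3_Eff and d3_Ineff, where 0.16% of all genes were called higher and 0.24% lower. At an unadjusted p under 0.05, 3 were higher in d3_Eff and 1 lower, and the share of all genes at that threshold was not taken. Cldn4 had 7.50 ± 0.125 CPM in d3_Eff and 2.25 ± 0.103 in d3_Ineff, a log2 difference of 1.74 ± 0.34 (adjusted p = 0.0634). Tjp3 had 3.22 ± 0.379 and 0.575 ± 0.238 CPM, a difference of 2.46 ± 0.54 (adjusted p = 0.101). Cldn7 had 26 counts against 3, a ratio of 9.21 (95% counting interval 2.82 to 47.6, adjusted p = 0.149). Cldn6 had 2 counts against 13, and its adjusted p was 0.497. These 3 genes, Cldn4, Cldn7 and Tjp3, were called higher in d3_Eff by DESeq2 (adjusted p = 1.05e-08, 0.0201 and 0.00218) and without the filter on low counts. More of all genes were called there too. DESeq2 called 146 of 12776 higher and 299 lower, and without the filter 138 of 23407 were higher and 321 lower. When either MEF library was left out of the common fit, more of all genes were again called, and edgeR also called these 3 members. Without MEF replicate 1 their adjusted p was 3.83e-05, 0.0213 and 0.00441, and without MEF replicate 2 it was 6.84e-05, 0.0258 and 0.00607.

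The sorted groups of day 6 differed in most members. In d6_Eff, 7 of the 9 members were higher than in d6_Ineff, while 5.38% of all genes were called higher and 9.25% lower. All 9 had both d6_Eff libraries above both d6_Ineff libraries, and all 9 passed an unadjusted p of 0.05. The shares of all genes that did so were not taken, so these counts are descriptions. The median log2 difference of the members was 3.43, against 0 for all genes. Cldn7 differed most, with 171 ± 5.39 against 0.732 ± 0.358 CPM, 234-fold, or 7.91 ± 0.48 on the log2 scale (adjusted p = 1.90e-05). Cldn6 was 62.1-fold higher (5.92 ± 0.44, adjusted p = 3.57e-05), Ocln 41.2-fold (5.25 ± 1.16, adjusted p = 0.0118) and Crb3 27.3-fold (4.74 ± 0.56, adjusted p = 5.74e-04).

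The steps of the remaining members were smaller. Cldn4 was 10.8-fold higher in d6_Eff (3.43 ± 0.32 on the log2 scale, adjusted p = 1.29e-04) and Tjp3 8.23-fold (3.07 ± 0.50, adjusted p = 0.00282). Cldn3 was 4.39-fold higher (2.14 ± 0.39, adjusted p = 0.00402). Cgn, at 8.97 ± 0.848 against 3.56 ± 1.60 CPM, and Marveld3, at 4.58 ± 0.328 against 0.908 ± 0.465 CPM, did not pass (adjusted p = 0.153 and 0.152). The call of Ocln was lost without d6_Ineff replicate 1 (adjusted p = 0.0533) or d6_Eff replicate 2 (adjusted p = 0.0597), and that of Cldn3 without d6_Ineff replicate 2 (adjusted p = 0.0613). The size of the Ocln difference also turned on d6_Ineff, where replicate 1 had no count. It was 4.27 on the log2 scale without that library and a fitted 11.87, which depends on the prior count, without replicate 2. For Tjp3 the difference was 4.00 and 2.38 without d6_Ineff replicates 1 and 2, and for Cldn6 it was 6.51 without replicate 2. Cgn was called when MEF replicate 1 was left out of the fit (adjusted p = 0.0413).

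Epcam, whose protein was the gate, had 27.8 ± 0.102 CPM in d6_Ineff and 971 ± 33.1 in d6_Eff, and the gate and the member levels cannot be told apart in this contrast. Cdh1, which encodes E-cadherin, had 43.0 ± 0.565 and 413 ± 26.1 CPM. Of 6 markers of simple epithelium, Krt8 and Krt18 were called higher in d6_Eff, and their list summed to 64.2 and 45.9 CPM in d6_Ineff and 260 and 310 in d6_Eff. Of 6 fibroblast markers 5 were called lower in d6_Eff, with sums of 1124 and 1026 CPM in d6_Ineff and 185 and 104 in d6_Eff. Of 5 endothelial markers 3 were lower, with sums of 151 and 158 against 75.6 and 75.5 CPM. Of 6 trophoblast markers 2 were higher, Tfap2c and Elf5, with sums of 14.3 and 13.8 against 38.8 and 45.0 CPM, and Cdx2 and Prl3d1 had no count in either group. Of 6 markers of pluripotent cells 3 were higher, Nanog, Utf1 and Tdgf1, and Esrrb was lower, with sums of 45.5 and 46.9 against 197 and 186 CPM. Epidermal keratinocyte markers summed to 6.02 to 8.52 CPM in these 4 libraries, nearly all from Krt10, with Krt5, Krt1 and Dsg3 at 0. Leukocyte markers summed to 0.646 to 2.95 CPM, with Ptprc and Cd3e at 0. Of all genes, 5.38% were called higher and 9.25% lower in this contrast. The part of these cell type signals in the member differences was not tested.

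**Figure D2:**
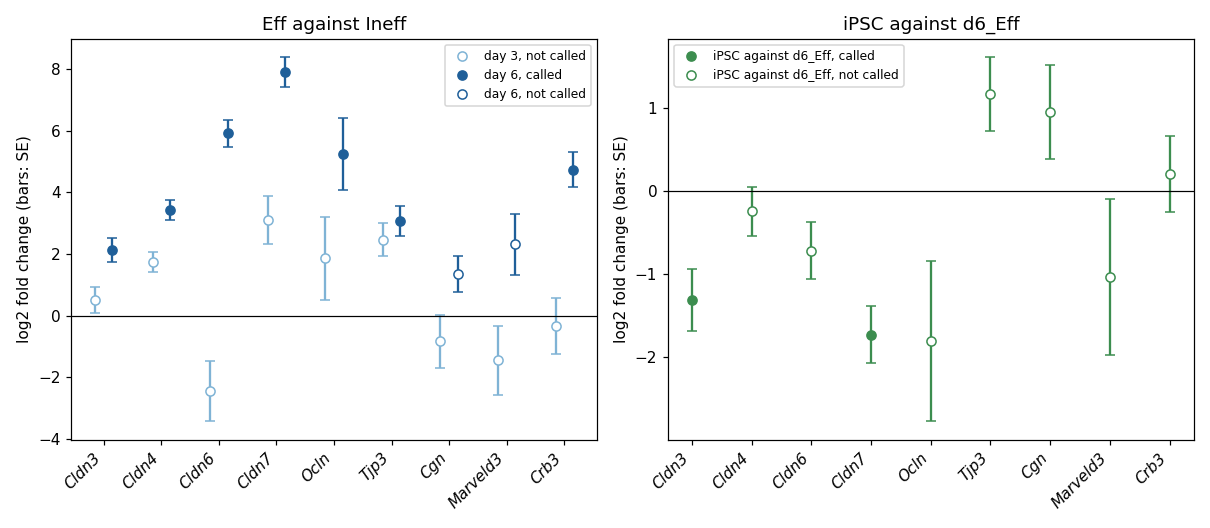
Log2 fold change of each member with its SE for the Eff against Ineff populations of day 3 and day 6 (left) and for iPSC against d6_Eff (right); filled points passed an adjusted p of 0.05. On day 6, 7 members lie above 0 and are filled, none is filled on day 3, and only Cldn3 and Cldn7 are filled on the right, both below 0.

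Against MEF, d6_Ineff was higher in 8 of the 9 members, with 15.6% of all genes higher and 15.2% lower, and d6_Eff in all 9, with 20.9% higher and 21.7% lower. No member was lower in either contrast by edgeR or DESeq2, also at an unadjusted p under 0.05. Cldn3 and Cldn4 stood 5.49 ± 0.59 and 5.44 ± 0.44 above MEF on the log2 scale in d6_Ineff (adjusted p = 4.25e-05 and 6.27e-06). In d6_Eff they stood 7.63 ± 0.59 and 8.87 ± 0.47 above it (adjusted p = 2.32e-06 and 1.91e-07). Cldn6 reached 55.2 times MEF in d6_Ineff (95% counting interval 9.65 to 2203) and 3226 times in d6_Eff (579 to 127437). For Cldn7 these ratios were 9.09 (2.30 to 78.6) and 2267 (627 to 18722). Ocln was the member not called in d6_Ineff, with 0.618 ± 0.874 CPM against 0.610 ± 0.717 in MEF (adjusted p = 0.808). In d6_Ineff the Cldn7 call was lost without d6_Ineff replicate 1 (adjusted p = 0.0979), and that of Marveld3 without MEF replicate 1 (adjusted p = 0.0684) or d6_Ineff replicate 2 (adjusted p = 0.0802). All 9 calls of d6_Eff against MEF held whichever library was left out. Without MEF replicate 2 the change of Cldn4 was 4.84 in d6_Ineff and 8.24 in d6_Eff, and that of Cldn3 in d6_Eff was 7.03. That of Cldn6 in d6_Ineff was 4.83 without d6_Ineff replicate 2. Without MEF replicate 1 no fold of the 4 claudins can be given.

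Between days, 5 members were higher in d6_Ineff than in d3_Ineff (Cldn3, Cldn4, Cldn6, Cldn7 and Cgn), against 3.19% of all genes higher and 1.23% lower. All 9 were higher in d6_Eff than in d3_Eff, against 4.24% higher and 4.87% lower. In the Ineff groups Cldn4 was 9.08-fold higher on day 6 (3.18 ± 0.34 on the log2 scale, adjusted p = 7.08e-04), and it was the only one of the 5 that stayed called whichever library was left out. Cldn3 was not called without d3_Ineff replicate 1 or 2 or d6_Ineff replicate 1 (adjusted p = 0.141, 0.0847 and 0.0920), nor was Cgn (adjusted p = 0.160, 0.215 and 0.141). Cldn6 was not called without replicate 2 of d3_Ineff or of d6_Ineff (adjusted p = 0.180 and 0.153). Cldn7, with 3 counts in d3_Ineff, was not called without any 1 of 8 libraries. Its adjusted p was 0.213 and 0.0590 without d3_Ineff replicates 1 and 2 and 0.225 and 0.0606 without those of d6_Ineff, and it lay between 0.0576 and 0.0586 without either library of d6_Eff or of iPSC. Crb3 and Tjp3 were called without MEF replicate 1 (adjusted p = 0.0286 and 0.0290) or 2 (0.0327 and 0.0328) and by DESeq2 (0.0193 and 0.0396).

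In the Eff groups Cldn7 was 271-fold higher (8.09 ± 0.49, adjusted p = 9.68e-06), Crb3 163-fold (7.19 ± 0.68, adjusted p = 1.94e-04) and Cgn 51.7-fold (5.56 ± 0.76, adjusted p = 9.98e-04). Cldn6 had 2 counts in d3_Eff and 4799 in d6_Eff, a ratio of 2571 (95% counting interval 711 to 21235). All d3_Eff counts of Cldn6, Cgn and Crb3 were in replicate 1. Without d3_Eff replicate 2 their log2 differences were 10.34, 4.66 and 6.31, and without replicate 1 no fold can be given, though all 3 stayed called. Ocln, Tjp3 and Marveld3 were the calls of the Eff step that 1 library could end, with adjusted p up to 0.159 without d3_Eff replicate 1, 0.112 without d3_Eff replicate 1 and 0.109 without d3_Eff replicate 2. They were also lost without d6_Eff replicate 2 (adjusted p = 0.0818, 0.0810 and 0.0868) or, for Ocln and Marveld3, d6_Eff replicate 1 (adjusted p = 0.0559 and 0.0831), and without d3_Eff replicate 2 for Ocln and Tjp3 (adjusted p = 0.113 and 0.0874).

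The Eff against Ineff difference was called larger on day 6 than on day 3 for 1 of 9 members, Cldn6. Of all genes, 0.296% had a called positive and 1.09% a called negative difference between days. The fitted difference between days was above 0 for all 9, from 0.61 for Tjp3 to 8.38 for Cldn6. For Ocln it was -1.68 without d3_Ineff replicate 2, and for Tjp3 -0.05 without d6_Ineff replicate 2. The day 6 contrast of Cldn6 exceeded the day 3 contrast by 8.38 ± 1.02 on the log2 scale (adjusted p = 0.00591). That value rests on 2 counts in d3_Eff and 13 in d3_Ineff. It was 7.58 without d3_Eff replicate 2, 9.01 without d6_Ineff replicate 2 and 7.28 without d3_Ineff replicate 1, where the call was lost (adjusted p = 0.108). Crb3 had a difference of 5.08 ± 1.10 (adjusted p = 0.0605), Cldn7 of 4.81 ± 1.45 (adjusted p = 0.163) and Cldn4 of 1.69 ± 0.45 (adjusted p = 0.115). At an unadjusted p under 0.05 there were 6 members, all positive, and the share of all genes at that threshold was not taken. DESeq2 called 4 members, Cldn4, Cldn6, Cldn7 and Crb3. Among all genes it called 236 of 14036 positive and 597 negative. For Cldn3 the difference was 1.63 ± 0.56 (adjusted p = 0.232). Leaving out either MEF library from the edgeR fit added Cldn3 to those 4, at 1.62 without replicate 1 and 1.63 without replicate 2. More of all genes were called in those fits too. Without d3_Eff replicate 1 neither Crb3 nor Cldn6 had a count left in d3_Eff. Their fitted differences, 9.52 and 11.38, then depend on the prior count, though Crb3 was also called in that fit.

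Compared with d6_Eff, iPSC had lower Cldn3 and Cldn7 and no member called higher, against 13.6% of all genes higher and 15.9% lower. The groups did not overlap for any of the 9 members, though 7 of them were not called. The share of all genes without overlap was not taken. Cldn7 fell from 171 ± 5.39 to 51.6 ± 3.02 CPM, 3.32-fold (a log2 change of -1.73 ± 0.34, adjusted p = 0.00295). Cldn3 fell from 37.1 ± 0.742 to 14.9 ± 1.71 CPM, 2.49-fold (-1.31 ± 0.37, adjusted p = 0.0214), and this call was lost when any of the 4 libraries was left out. Its adjusted p was then 0.108 and 0.0860 without d6_Eff replicates 1 and 2, and 0.0931 and 0.151 without iPSC replicates 1 and 2. Cldn4 differed by -0.25 ± 0.29 (adjusted p = 0.581), Cldn6 by -0.72 ± 0.34 (adjusted p = 0.142) and Crb3 by 0.20 ± 0.46 (adjusted p = 0.790). Ocln differed by -1.81 ± 0.96 (adjusted p = 0.187) and Marveld3 by -1.04 ± 0.94 (adjusted p = 0.455).

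Tjp3 and Cgn had the opposite sign, with 35.2 ± 2.63 against 15.7 ± 2.55 CPM and 17.3 ± 1.36 against 8.97 ± 0.848 CPM, both with the higher value in iPSC (adjusted p = 0.0748 and 0.239). Tjp3 was the 1 member higher at an unadjusted p under 0.05. It was called by DESeq2 (adjusted p = 0.0492) and by edgeR without MEF replicate 1 or 2 (adjusted p = 0.0109 and 0.0111) or without d6_Ineff replicate 1 or 2 (adjusted p = 0.0283 and 0.0278). Cldn6 was called lower without MEF replicate 1 or 2 (adjusted p = 0.0164 and 0.0289), and Ocln without the filter on low counts (adjusted p = 0.00102). Relative to its iPSC mean, the level in d6_Eff was 352% for Ocln, 332% for Cldn7, 249% for Cldn3 and 205% for Marveld3, and 86.8% for Crb3, 51.9% for Cgn and 44.6% for Tjp3. All 4 claudins and both MARVEL proteins thus had a higher mean in d6_Eff than in iPSC, and both scaffolds and Crb3 a lower one. In the reported fit only the differences of Cldn3 and Cldn7 were called.

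The 4 member claudins were next placed among all 21 claudin genes measured, with levels divided by exon length so that genes can be compared. The claudin sum was 13.3 and 17.9 CPM per kb in MEF, 31.6 and 41.3 in d3_Ineff, 56.7 and 57.4 in d3_Eff, 58.5 and 55.2 in d6_Ineff, 377 and 372 in d6_Eff, with 184 and 207 in iPSC. The 4 members held 4.95% and 0% of it in MEF, 8.37% and 7.35% in d3_Ineff, 12.0% and 10.7% in d3_Eff, 33.5% and 35.0% in d6_Ineff, 82.0% and 83.0% in d6_Eff, with 93.1% and 94.4% in iPSC. The share of the members thus was lowest in MEF and highest in iPSC, with no overlap between groups. Most of the rest in MEF and in the intermediates other than d6_Eff was Cldn12, which made up 89.5% ± 3.65 of claudin transcripts in MEF, 80.0% ± 0.13 in d3_Ineff, 55.2% ± 1.97 in d3_Eff, 35.9% ± 2.11 in d6_Ineff and 4.24% ± 0.71 in d6_Eff. Its own level was 48.8 and 69.7 CPM in MEF and 75.6 and 58.9 in d6_Eff (log2 difference 0.19 ± 0.23, adjusted p = 0.552).

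Within the members the makeup differed between groups. Cldn4 held 32.3% ± 0.04 of all claudin transcripts in d6_Eff and 52.2% ± 2.64 in iPSC, and Cldn7 held 23.5% ± 0.93 and 13.6% ± 0.32. Cldn6 held 18.8% ± 0.23 and 21.9% ± 0.17, and Cldn3 7.87% ± 0.09 and 6.11% ± 1.19. In d6_Ineff the order was Cldn4 with 19.8% ± 2.56, Cldn3 with 11.8% ± 2.27, Cldn6 with 2.02% ± 1.07 and Cldn7 with 0.65% ± 0.30. Cldn3 thus ranked ahead of Cldn6 and Cldn7 in d6_Ineff and behind both in d6_Eff and iPSC. Among non-members Cldn11, a claudin of myelin and testis barriers, held 9.93% ± 0.63 in d3_Ineff, 31.4% ± 0.50 in d3_Eff, 14.3% ± 1.77 in d6_Ineff, 8.54% ± 0.95 in d6_Eff and 0.05% ± 0.07 in iPSC. Its own level was higher in d6_Eff (64.9 and 54.8 CPM) than in d3_Eff (33.6 and 33.3), so the lower share in d6_Eff stands beside a larger claudin sum. In d6_Eff its share was above that of Cldn12.

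**Figure D3:**
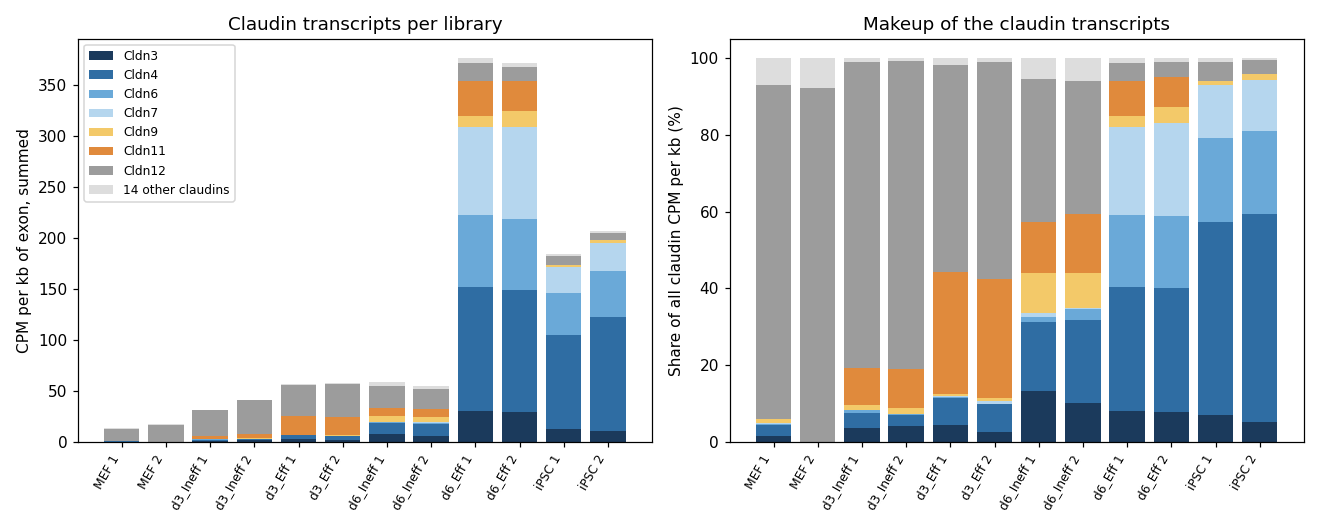
Claudin transcripts in each library, as the sum of CPM per kb of exon (left) and as shares of that sum in percent (right); blue shades are the 4 member claudins and grey is Cldn12. Cldn12 fills 86.9% and 92.1% of the MEF bars, and the blue shades fill 82.0% and 83.0% of the d6_Eff bars.

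Other genes of the junction were taken from lists of 17 other claudins, 10 other membrane proteins, 13 scaffolds and 10 polarity genes, of which 8, 10, 13 and 9 could be tested. In iPSC against MEF, 12 of the 40 were higher and 9 lower, or 30.0% and 22.5%, near the 26% and 26.7% of all genes. Of the claudins 2 were higher (Cldn5 and Cldn9) and 1 lower (Cldn12), of the membrane proteins 5 and 2, of the scaffolds 2 and 5, and of the polarity genes 3 and 1. Jam2, an adhesion molecule, rose from 2.61 ± 1.13 to 143 ± 11.5 CPM (adjusted p = 4.76e-07), and Lsr and Ildr1, angulins of tricellular contacts, rose from 0.0774 and 0.129 to 18.5 and 26.9 CPM (adjusted p = 5.54e-06 and 7.86e-07). Jam3 and Marveld1 fell by 2.55 and 2.03 on the log2 scale (adjusted p = 1.09e-05 and 2.34e-05). Among scaffolds Patj rose by 0.82, and Mpdz, Cgnl1 and Amotl1 fell by 2.34, 3.00 and 1.80 on the log2 scale. Among polarity genes Prkcz, Pard6b and Lin7c rose by 4.74, 2.17 and 1.30 and Pard6g fell by 2.10.

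In d6_Eff against d6_Ineff, 4 of these 40 tested genes were higher (Cldn11, Marveld2, Lsr and Pard6b) and 5 lower (Jam2, Jam3, Marveld1, Tjp1 and Cgnl1), against 5.38% and 9.25% of all genes. Both counts moved when single libraries were left out, and the calls of single genes in these lists were not followed there. Marveld2 encodes tricellulin and is the next gene to Ocln on chromosome 13. It measured 0.521 and 0.718 CPM in d6_Ineff and 9.18 and 9.69 in d6_Eff (log2 difference 3.90 ± 0.57, adjusted p = 0.00166). Tjp1, which encodes the widely expressed scaffold ZO-1, went the other way from Tjp3, with 270 ± 33.6 CPM in d6_Ineff and 107 ± 9.20 in d6_Eff (-1.33 ± 0.36, adjusted p = 0.0291). Cgnl1, the cingulin paralogue, had 10.2 ± 2.25 against 1.99 ± 0.0992 CPM (-2.35 ± 0.63, adjusted p = 0.0300), the sign opposite to that of Cgn. Cldn9, the neighbour of Cldn6 on chromosome 17, had 8.98 and 7.10 CPM in d6_Ineff and 15.4 and 23.1 in d6_Eff (adjusted p = 0.0779). In iPSC against d6_Eff, 4 of the 40 were higher and 13 of them lower, against 13.6% and 15.9% of all genes. Cldn11, Cldn9 and Cldn12 fell by 8.47, 2.49 and 0.97, and Cxadr, a coxsackievirus receptor of junctions, fell from 177 ± 25.8 to 20.5 ± 1.64 CPM (adjusted p = 1.69e-06).

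A list of 10 transcription factors known to act on junction genes was taken. Zeb1 had no count in any library, and whether the annotation used for counting covers it was not settled, so nothing is read from its 0. The other 9 were tested. In iPSC against MEF, 5 were higher (Grhl1, Grhl2, Grhl3, Ovol1 and Ovol2, epithelial factors) and 4 lower (Snai1, Snai2, Zeb2 and Twist1, mesenchymal factors). Of all genes, 26% were called higher and 26.7% lower in that contrast. In d6_Eff against d6_Ineff 3 were higher and 3 lower, against 5.38% and 9.25% of all genes. Grhl2 measured 0.103 and 0 CPM in MEF, 0.131 and 0.362 in d3_Ineff, 1.17 and 0.676 in d3_Eff, 2.14 and 2.47 in d6_Ineff, 53.0 and 62.0 in d6_Eff, with 18.1 and 20.4 in iPSC. Its day 6 difference was 4.63 ± 0.39 on the log2 scale (adjusted p = 5.79e-05). Ovol2 had 3.15 ± 0.113 and 32.6 ± 7.02 CPM (adjusted p = 1.82e-04) and Grhl1 had 2.17 ± 1.84 and 28.4 ± 0.225 CPM (adjusted p = 0.00500).

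Mesenchymal factors were lower than in MEF by day 3. Snai1 had 68.5 and 48.0 CPM in MEF, 5.34 and 2.35 in d3_Ineff and 2.56 and 3.69 in d3_Eff, and Snai2 had 64.8 and 75.7, 4.68 and 2.99, and 2.69 and 0.884 CPM. Both were called lower than in MEF in either day 3 group, by 3.92 and 4.19 on the log2 scale in d3_Ineff (adjusted p = 8.99e-05 and 7.96e-04). In the same d3_Ineff libraries 3 of the 9 members were called higher than in MEF, against 15% of all genes. The other 6 had 3 to 20 counts there, where a missed threshold does not show that a change is absent. Twist1 had 15.9 ± 1.32 CPM in d6_Ineff and 2.84 ± 0.200 in d6_Eff (-2.48 ± 0.30, adjusted p = 3.94e-04). Snai1 and Snai2 were also lower in d6_Eff than in d6_Ineff (adjusted p = 0.00668 and 0.0109). From d6_Eff to iPSC, Grhl2 and Ovol2 fell by 1.58 and 2.56 and Grhl3 rose by 3.77 on the log2 scale (adjusted p = 0.00411, 1.47e-04 and 5.33e-05). Whether any of these factors acts on the members was not tested.

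**Figure D4:**
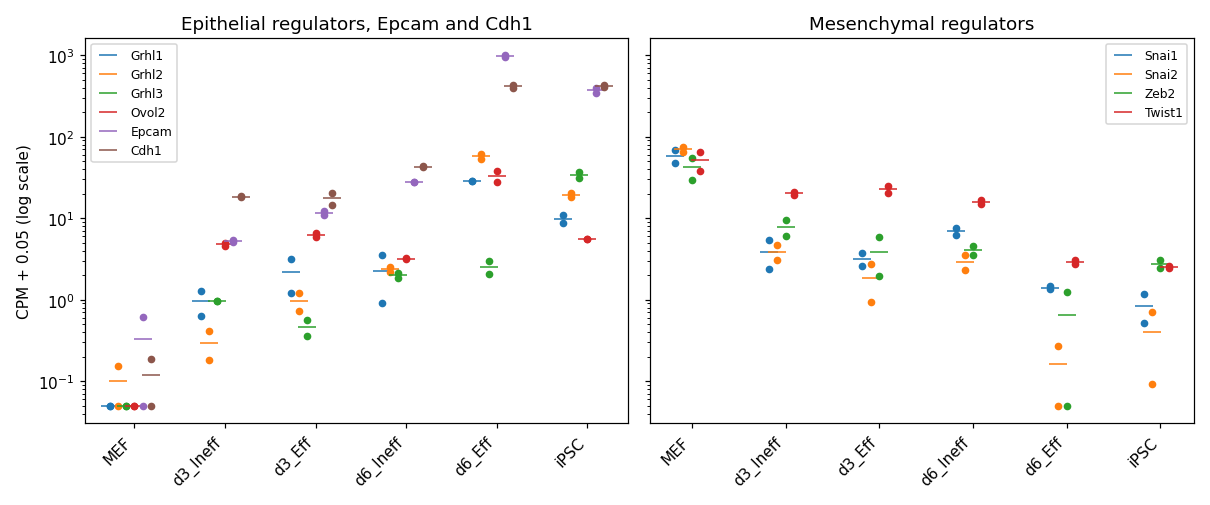
Levels of epithelial regulators with Epcam and Cdh1 (left) and of mesenchymal regulators (right) in CPM with 0.05 added on a log axis, points being libraries and dashes group means. Grhl2 reaches 53.0 and 62.0 CPM in d6_Eff, and Snai1 and Snai2 drop from 48.0 to 75.7 CPM in MEF to under 6 CPM in day 3 cells.

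Over the 12 libraries the 36 pairs of members had Pearson r of log2 CPM from 0.612 (Cldn3 with Ocln) to 0.990 (Cldn6 with Crb3), with a median of 0.872. The points share 6 groups and 2 libraries in each, so these values are descriptions. Among 11654 other protein-coding genes with at least 5 CPM in some group, the 5 most like the mean profile of the members were Grhl2 (r = 0.986), Ap1m2 (0.982), Misp (0.974), Spag1 (0.972) and Camsap3 (0.970). Ap1m2 encodes a subunit of the epithelial clathrin adaptor AP-1B and Camsap3 a microtubule minus-end protein of epithelial cells. For Cldn4 the most like gene was Epcam (r = 0.992), for Cldn7 Lad1 (0.984), and for Cldn6 and Crb3 Ap1m2 (0.988 and 0.993). Cldn3 was most like March9 (0.989), Tjp3 N4bp3 (0.983), Cgn Slc8a2 (0.978), Marveld3 Arhgap45 (0.947) and Ocln Gsr (0.937). For Tjp3 the next was Nr5a2 (0.980), a nuclear receptor active in pluripotent cells, with 0 CPM in MEF, 54.3 in d6_Eff and 40.2 in iPSC.

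Counting ignored strand, so reads in exon sequence that a member shares with a gene on the other strand cannot be assigned by strand. The count tables hold 313150 to 910992 ambiguous reads per library, which count for no gene. How many of these came from the members is not known. In the GENCODE M21 annotation 3 members shared exon sequence with a gene on the other strand. Wbscr25, which overlaps Cldn3, was at 0 CPM outside iPSC, where it had 0.0759 ± 0.0142. Dennd1c, which overlaps Crb3, was at 0 CPM outside d6_Eff (2.12 ± 0.161) and iPSC (3.47 ± 0.438), in the groups where Crb3 was high. Apba3, which overlaps Tjp3, had 51.9 ± 0.477 CPM in MEF, where Tjp3 had no count, and 25.5 to 36.4 elsewhere.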

How the data were processed

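RNA was extracted with the RNeasy Micro kit, and poly-A libraries were made with a directional NEBNext Ultra kit, per the labels' protocols. The submitters' processing notes name STAR 2.3.0, Picard 1.100, HTSeq 0.6.0 and build mm9 and no gene annotation. For every sample the authors deposited a table of raw whole-number counts per gene. The names of these tables mark the counting as not stranded. Each table also held 5 summary lines, which stayed out of library sizes and tests. Ensembl identifiers were given symbols, exon lengths and overlaps from GENCODE M21 (32860 of 37583, 87.4%), on a later build than mm9, so gene coordinates are not printed. Promoter windows came from RefSeq. All 112 list entries were matched, and values of some list genes are not reported here.

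Tests used edgeR 4.0.16 (with limma 3.58.1, R 4.3.3). After filterByExpr and TMM scaling, 1 quasi-likelihood fit of the 12 libraries with a mean per group was made, with 6 residual and 5.04 prior degrees of freedom. Its biological coefficient of variation was 28.0%. Calls required a p adjusted by Benjamini-Hochberg over 16240 genes to be under 0.05. No share of all genes was taken at an unadjusted p or for groups without overlap. Such counts of members are descriptions. The SE is the absolute log2 fold change over the square root of F, and fitted changes carry a prior count of 0.125. Intervals and the floor of 3 counts cover counting error only. The script was tested on simulated data.

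All members are named. From each other list, up to 3 called genes per direction with the smallest adjusted p and at least 1 CPM in the higher group are named in iPSC against MEF, d6_Eff against d6_Ineff and iPSC against d6_Eff. Neighbours, overlapping genes, cell type markers and further values of these genes were named after their values were seen. Likeness used log2 CPM with a prior count of 2. The members and lists were chosen with earlier results of these data known. Alternatives were RLE size factors, no filter, DESeq2 1.42.0, a replicate block and leaving out each library. Leaving out both libraries with many reads outside genes was added after seeing the data.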

Additional observations from a re-analysis of the deposited data

Results flagged for a closer look

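For Cldn6 the Eff against Ineff contrast differed between days by a test of the difference itself, 8.38 on the log2 scale (SE 1.02, edgeR adjusted p = 0.00591). On day 3 its mean was lower in d3_Eff (0.0434 CPM) than in d3_Ineff (0.287 CPM), and on day 6 it was higher in d6_Eff (121 CPM) than in d6_Ineff (1.95 CPM). The day 3 values rest on 2 and 13 counts and that day's contrast was not called (adjusted p = 0.497). The adjusted p of the difference ranged from 4.68e-05 to 0.108 when single libraries were left out, with the highest value without d3_Ineff replicate 1.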

How the results depend on the processing

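No called result changed sign, and none was called with another sign, under the alternatives run. Among results not called, 11 changed sign under 1 or more alternatives, 5 of them of Ocln, whose change in d6_Ineff against MEF ran from -6.21 to 2.58 over the left-out libraries. Of 99 results for a member in a comparison, all 99 kept their call with RLE size factors and all 99 with the replicate block. The replicates share only a number: over 15 pairs of groups the correlation of same-numbered deviations ran from -0.101 to 0.213, and 2 pairs exceeded 0.1. With the replicate block the day difference of Cldn6 was 8.40 (adjusted p = 0.00805).

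Without the filter 85 results kept their call and 14 became called. The members called higher then numbered 6 in d3_Ineff against MEF, 3 in d3_Eff against d3_Ineff, 1 in iPSC against d6_Eff and 5 in the day difference. With DESeq2 88 were kept, 10 became called and 1 was lost (Ocln, iPSC against MEF). The last 3 of these counts were 3, 1 and 4. In d3_Eff against d3_Ineff and the day difference, more of all genes were also called without the filter and with DESeq2 than in the reported fit. Without MEF replicate 2 and d6_Eff replicate 2, 91 were kept and 8 became called, and the counts were 3, 1 and 3.

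With each library left out in turn, 1115 of 1188 results kept their call, 41 lost it and 32 gained one. The members called higher ranged from 0 to 3 in d3_Eff against d3_Ineff, 2 to 5 in d3_Ineff against MEF, 4 to 4 in d3_Eff against MEF (lower, 0 to 1), 7 to 8 in d6_Ineff against MEF, 9 to 9 in d6_Eff against MEF, 8 to 9 in iPSC against MEF, 6 to 8 in d6_Eff against d6_Ineff, 1 to 7 in d6_Ineff against d3_Ineff, 6 to 9 in d6_Eff against d3_Eff, 0 to 1 in iPSC against d6_Eff (lower, 1 to 3) and 0 to 5 in the day difference. The member called lower in d3_Eff against MEF was Cgn, without d3_Eff replicate 1 (adjusted p = 0.0351), where the remaining library had no count. Low member counts limit the MEF and day 3 values most, and each member had 0 to 13 counts in MEF. At such counts a difference that misses the threshold is not shown to be absent.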
